A study of Mus musculus with 24 samples.

Results

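The cortical interneuron neuropeptides are a set of genes for small secreted peptides that mark classes of GABA neurons in the cerebral cortex, and here they were the 10 genes Sst, Vip, Npy, Cck, Pdyn, Penk, Tac1, Cort, Crh and Pnoc. They were found through the array's platform annotation, which gave them 14 probes among the 45281 probes and 19057 genes of the array. A probe was kept for testing where its detection p-value in the scanner table was under 0.05 on at least 6 of the 24 arrays, and 8 of the 10 genes passed with 10 probes. All 8 were detected on 12 of 12 frontal cortex arrays and so passed through the tissue where they are high, which means that counts over the 8 describe them and support nothing. Crh, the stress peptide corticotropin-releasing hormone, was detected on 0 of 24 arrays, and Pnoc, the precursor of nociceptin, on 1 of 24 (male cerebellum replicate 5).

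Total RNA came from naive SJL/JOrlCrl mice aged 10 weeks, 6 females and 6 males, and both the frontal cortex and the cerebellum of each animal were hybridised, 1 array per tissue. This gives 4 groups of 6 arrays: female frontal cortex, male frontal cortex, female cerebellum and male cerebellum. The mice were untreated littermates of an inbred strain, and which of them share a litter is not given in the sources used here. The study asked which transcripts set the female cerebellum apart.

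Neuropeptides are made as larger precursors, cut by proprotein convertases, stored in dense-core vesicles and released to act on G protein-coupled receptors. In the neocortex Sst and Vip mark largely separate interneuron classes, and Cort is made in part of the Sst cells. Cck is made by some interneurons and also by many pyramidal cells. Penk, Pdyn and Tac1 are known in the cortex but are made far more strongly by the projection neurons of the neighbouring striatum, where Penk marks the indirect pathway and Pdyn and Tac1 the direct pathway.

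Several of these genes are classic targets of cAMP signalling through CREB, so their promoters are shown for the match to the core of the cAMP response element. RefSeq promoter windows on GRCm38.p6 were found for 7 of the 10 genes, and 5 of the 7 held TGACG or its reverse complement CGTCA in a window of 250 bases before and 50 after the listed start. The share of all 32851 windows with a match was 20.8%. The last 100 bases before the listed start are given 5′ to 3′ on the gene's strand, with each match in capitals.
Sst: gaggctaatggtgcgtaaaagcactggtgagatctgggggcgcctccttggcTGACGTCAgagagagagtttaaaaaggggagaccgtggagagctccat
Vip: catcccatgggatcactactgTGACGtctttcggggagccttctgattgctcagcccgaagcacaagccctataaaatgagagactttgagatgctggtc
Cck: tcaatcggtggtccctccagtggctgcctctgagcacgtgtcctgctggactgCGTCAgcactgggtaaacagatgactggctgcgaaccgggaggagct
Tac1: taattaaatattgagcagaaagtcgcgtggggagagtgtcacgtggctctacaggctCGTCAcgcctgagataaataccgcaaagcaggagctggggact
Cort: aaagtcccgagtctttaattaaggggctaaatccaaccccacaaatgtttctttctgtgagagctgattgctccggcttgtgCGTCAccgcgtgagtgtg
Sst, at chr16:23890845-23890944 on the minus strand, held the whole palindrome TGACGTCA, which 1.79% of all windows hold, and was the only member with it. The other 4 lie at chr10:5639118-5639217 (plus strand, Vip), chr9:121495695-121495794 (minus strand, Cck), chr6:7554961-7555060 (plus strand, Tac1) and chr4:149126764-149126863 (minus strand, Cort). Tac1 has a further match upstream of the printed stretch. Npy and Pdyn had no match in their windows. A match describes letters only, and no binding was measured.

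Values below are scanner signals, the mean bead intensity on a linear scale, for levels, and background-corrected, quantile-normalised log2 intensities for differences. Each gene was read by its brightest kept probe. The median signal of an array ran from 69.3 to 75.2 and detected probes from 18099 to 19927. Correlations of arrays were 0.983 to 0.995 within groups and at most 0.934 between tissues, and 5 of 5 Purkinje cell and 7 of 7 granule cell markers were higher in cerebellum in both sexes, as the tissue labels say. The bead number and the number of arrays limit the precision. Because a probe's brightness depends on its sequence, no probe is compared with another in level.

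**Figure D1:**
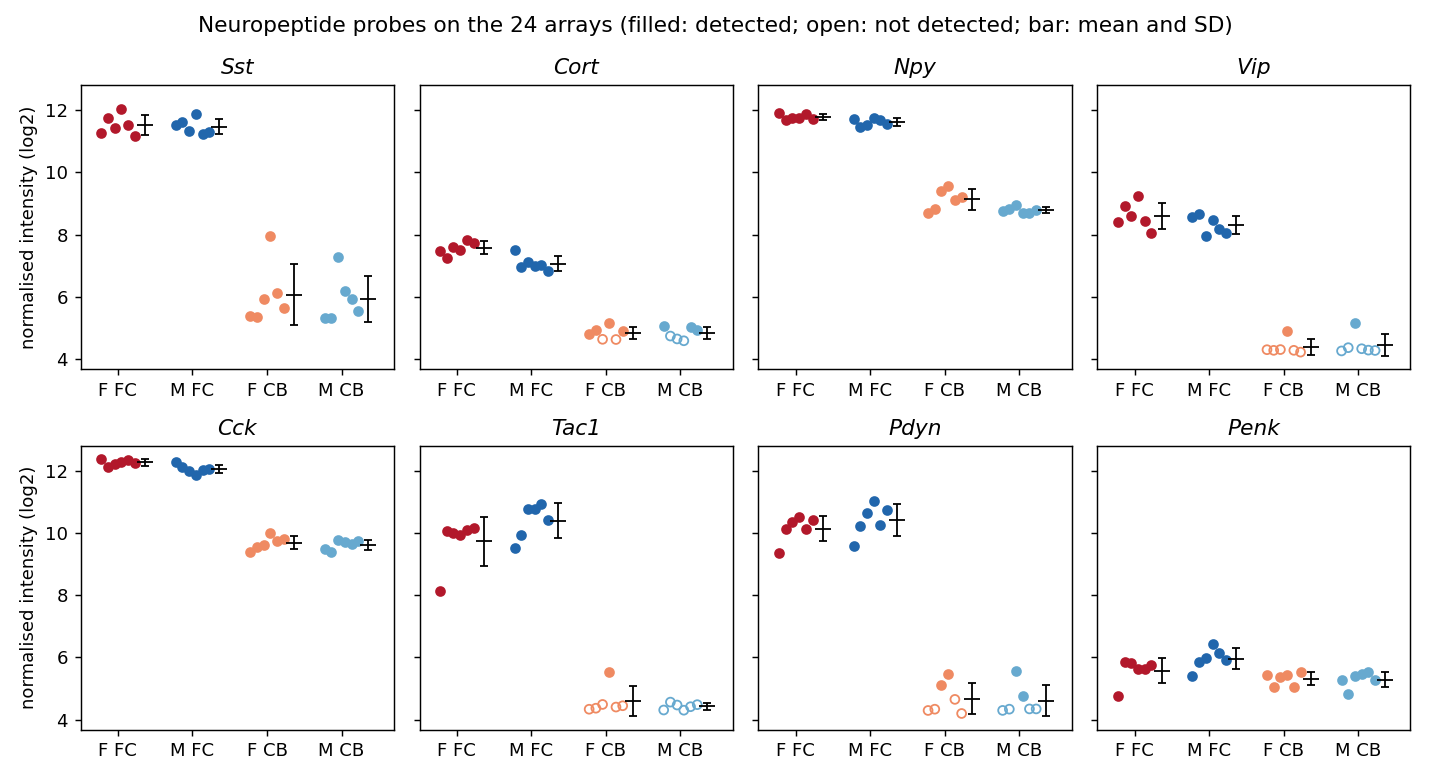
Log2 intensity (vertical axis) of the brightest kept probe of each of 8 neuropeptide genes on the 24 arrays, by sex (F, M) and tissue (FC, frontal cortex; CB, cerebellum), 6 arrays per group. Filled points were detected (p under 0.05) and open ones were not, and bars give mean and SD. The cortex and cerebellum points do not overlap for 7 of the genes, and for Penk they do.

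In females 7 of the 8 genes were lower in cerebellum than in frontal cortex and in males 8 of 8, from 1.58-fold for Penk in males to at least 51.3-fold for Tac1 in males. Of all 11439 named genes tested, 27.4% were lower in cerebellum in females and 29.1% in males (adjusted p under 0.05). The groups did not overlap for 7 of 8 in either sex, against 19% and 20.4% of all genes in that direction. The median difference of the 8 genes was -3.48 on the log2 scale in females and -3.36 in males, and that of all genes tested was 0.03 and 0.02. In bulk tissue, fewer cells that make a peptide and less transcript per cell cannot be told apart. All adjusted p-values are from limma with Benjamini-Hochberg adjustment over all kept probes, and differences are cerebellum minus frontal cortex with SE from the same fit.

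Sst encodes somatostatin, the inhibitory peptide of dendrite-targeting interneurons. Its signal in frontal cortex was 2457, 3235 and 5393 (lowest, median, highest) in females and 2667, 2801 and 4244 in males, and in cerebellum 90.8, 99.8 and 277 in females and 87.3, 101.0 and 182.5 in males. It stayed above background on all 12 cerebellum arrays, with 1 array per sex far above the rest. The difference was -5.47 ± 0.33 in females (44.5-fold, limma adjusted p = 7.3e-14) and -5.55 ± 0.33 in males (46.8-fold, adjusted p = 5.5e-14).

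Cort encodes cortistatin, a close relative of somatostatin that acts on the same receptors. Its frontal cortex signal was 211, 265 and 287 in females and 171, 191 and 210.0 in males, and its cerebellum signal 71.5, 77.9 and 83.4 in females and 70.8, 77.3 and 84.1 in males. The cerebellum values lay at the edge of detection, with 4 of 6 female and 3 of 6 male arrays detected. The difference was -2.73 ± 0.12 in females (6.65-fold, limma adjusted p = 3.5e-17) and -2.24 ± 0.12 in males (at least 4.59-fold, adjusted p = 3.1e-15). A second, dimmer Cort probe differed by -2.16 and -1.50.

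A fold is written as "at least" where 3 or fewer of the 6 arrays of the dim group detected the probe: the dim mean was then taken, per array, as the higher of its own value and the lowest value among detected probes.

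Npy encodes neuropeptide Y, made by cortical interneurons that include neurogliaform cells. Its signal was 3570, 4130 and 4365 in female and 3157, 3444 and 3907 in male frontal cortex, against 475, 564 and 755 in female and 417, 463 and 483 in male cerebellum. All 12 cerebellum arrays detected it. The differences were -2.65 ± 0.11 (6.26-fold, limma adjusted p = 1.1e-17) in females and -2.84 ± 0.11 (7.16-fold, adjusted p = 2.8e-18) in males.

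Vip encodes vasoactive intestinal peptide, the mark of interneurons that inhibit other interneurons. Its frontal cortex signal was 308, 449.5 and 790.2 in females and 307, 362 and 540 in males. In cerebellum it was 56.6, 61.4 and 78.2 in females and 60.0, 62.2 and 82.3 in males, and only the highest array of each sex was detected. The fitted differences were -4.23 ± 0.18 (at least 14.4-fold, limma adjusted p = 2.1e-17) and -3.87 ± 0.18 (at least 11.5-fold, adjusted p = 1.5e-16). The other Vip probe was detected on 2 of 24 arrays.

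Cck encodes cholecystokinin. Its signal was 4856, 5802 and 6413 in female and 4181, 4676 and 5669 in male frontal cortex, and 742, 804 and 1003 in female and 637, 772 and 885 in male cerebellum, detected on every array. It was lower in cerebellum by -2.58 ± 0.09 (5.97-fold, limma adjusted p = 9.8e-19) in females and -2.43 ± 0.09 (5.41-fold, adjusted p = 3.4e-18) in males. The interval was the narrowest of the 8 genes.

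Tac1 encodes the precursor of substance P and neurokinin A. Its signal was 347, 1203 and 1266 in female and 717, 1714 and 2159 in male frontal cortex, and 65.2, 67.1 and 93.6 in female and 61.8, 67.4 and 71.1 in male cerebellum. A single cerebellum array of 12 detected it, and 1 female cortex array was far below its group. The differences were -5.13 ± 0.28 (at least 29.3-fold, limma adjusted p = 5.4e-15) in females and -5.98 ± 0.28 (at least 51.3-fold, adjusted p = 2.0e-16) in males. A second Tac1 probe was detected on 0 of 24 arrays.

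Pdyn encodes prodynorphin, the source of ligands of the kappa opioid receptor. Its signal was 755, 1324 and 1835 in female and 738, 1611 and 2378 in male frontal cortex, and 54.9, 68.6 and 90.8 in female and 62.9, 64.1 and 93.1 in male cerebellum, with 2 of 6 arrays detected in each sex there. The differences were -5.47 ± 0.25 (at least 37.8-fold, limma adjusted p = 1.6e-16) and -5.80 ± 0.25 (at least 46.3-fold, adjusted p = 4.7e-17). A dimmer Pdyn probe differed by -1.41 and -1.42, so the size of the Pdyn difference depended on the probe.

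Penk encodes proenkephalin. Its probe was dim everywhere but detected on all 24 arrays, with a signal of 78.0, 105.7 and 113.1 in female and 86.3, 116 and 144 in male frontal cortex, and 80.9, 88.8 and 96.7 in female and 76.8, 89.0 and 93.7 in male cerebellum. Penk was the only one of the 8 whose groups overlapped. The difference was -0.26 ± 0.17 in females, which missed the threshold (95% interval -0.60 to 0.08, limma adjusted p = 0.18), and -0.66 ± 0.17 in males (1.58-fold, adjusted p = 0.0011). Without female frontal cortex replicate 1, the array with the lowest Penk signal in cortex, the female difference was -0.42 and passed (adjusted p = 0.011). In the 2 arrays per group of label batch a, defined below, the male difference was -0.59 and did not pass (adjusted p = 0.18).

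**Figure D2:**
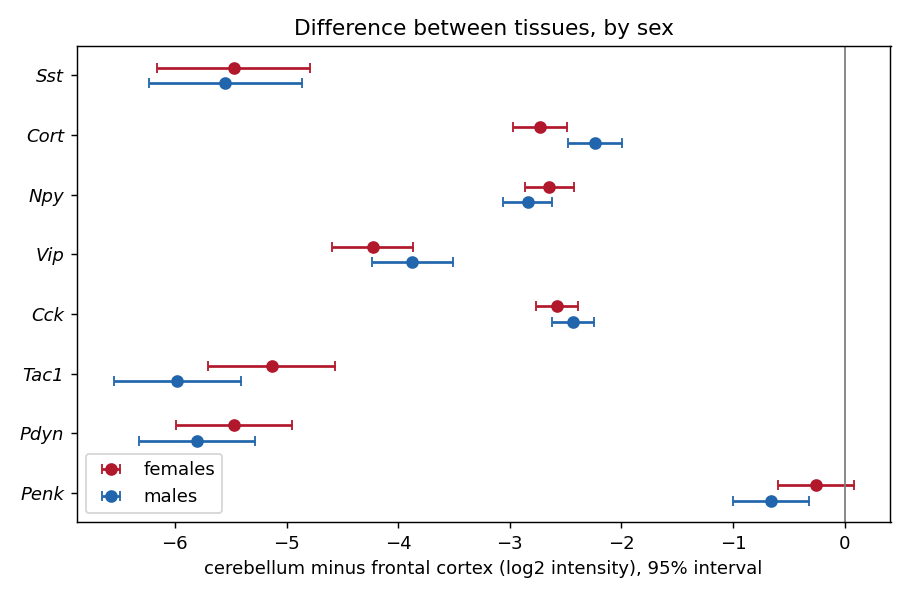
Cerebellum minus frontal cortex difference in log2 intensity (horizontal axis) for 8 neuropeptide genes, with the 95% interval of the limma fit, in females and males (6 arrays per group). The other 7 genes lie well below 0 in both sexes, and Penk lies nearest to 0, with an interval that crosses it in females.

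Genes that act with the peptides were compared as well, by lists chosen with earlier results known. Of 21 receptor genes for these peptides, 19 were on the array and 11 kept, and 9 were lower in cerebellum in females, 10 in males and 1 higher in both. Of the 19, 10 to 13 were detected on each frontal cortex array and 4 to 8 on each cerebellum array. Kept receptor genes could thus pass the filter through the tissue where they are high, so these counts describe them and support nothing. Cckbr, the brain receptor of cholecystokinin, differed by -4.79 and -4.80 (females, males), Sstr2, a somatostatin receptor, by -4.18 and -4.35, and Npy1r by -3.31 and -3.17. Crhr1, the receptor of the undetected Crh, was the higher one, by 0.84 and 1.11. Beside these list counts, 12073 of all 21113 kept probes passed by tissue in females and 12261 in males, in either direction. Of all 11439 genes tested, 27.4% were lower in cerebellum in females and 29.1% in males. Of the 10 kept genes for peptide processing and storage, 6 were lower and 3 higher in each sex. They moved less, with a median of -0.55 and -0.54; the largest were Vgf, a secreted granule protein, at -3.33 and -3.40, and Cadps2, a vesicle priming factor, at 1.32 and 1.54.

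Of the 11 kept genes for other neuropeptides, 7 were lower in cerebellum in females, 10 in males, and Sct, secretin, was higher in both (0.86 and 0.87). From this list 10 to 15 genes were detected on each frontal cortex array and 3 to 8 on each cerebellum array. The limit given for the receptor counts holds here too. Crhbp, which binds corticotropin-releasing hormone and marks some Sst cells, differed by -5.18 and -5.08, Cartpt by -4.50 and -5.23 and Adcyap1 by -3.97 and -3.65. The 20 kept genes of forebrain GABA neurons did not share the members' direction: 10 were higher and 9 lower in cerebellum in each sex. Calls by tissue were also common over all probes, as given above. The cerebellum has GABA neurons of its own, and which cells set these directions was not tested. Lamp5 differed by -6.72 and -6.47 and Dlx1 by -4.06 and -4.34, while Calb2, calretinin, differed by 4.19 and 3.51 and Pvalb, parvalbumin, by 2.72 and 2.80.

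Females and males were then compared within each tissue (female minus male). In cerebellum 0 of the 8 genes passed (limma, adjusted p under 0.05), against 0.114% of all genes at that threshold. At an unadjusted p under 0.05 it was 1 of 8. No share of all genes is given for an unadjusted p, so such counts, here and below, only describe the members. Npy came nearest, at 0.36 ± 0.11 (unadjusted p = 0.0026, adjusted p = 0.41), and its groups overlapped, with signals of 475 to 755 in females and 417 to 483 in males. The other 7 differences ran from -0.06 to 0.17.

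The labels carry a tag that divides every group into 2 and 4 arrays, called label batch a and b here because its meaning is not stated. In label batch b alone Npy was 0.55 higher in female cerebellum (limma adjusted p = 0.015), and in label batch a it differed by -0.02. The 2 female arrays of label batch a had Npy signals of 475 and 481, inside the male range, and the 4 of label batch b ran from 551.5 to 755, above every male array. Label batch b includes female replicate 4 and male replicate 3, cerebellum arrays with raised forebrain transcripts described below. Without these arrays, over both label batches, the Npy difference was 0.31 (limma adjusted p = 0.81).

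In frontal cortex 0 of 8 passed the sex comparison, against 0.157% of all genes at the adjusted threshold. An unadjusted p under 0.05 was found for 4 of 8, with no share of all genes to set beside it. Cort was the closest at 0.51 ± 0.12 higher in females (limma adjusted p = 0.078). Its groups of 6 separated in signal, from 211 to 287 in females and 171 to 210.0 in males, but in log2 intensity male replicate 1 lay inside the female range. The second Cort probe gave 0.45 (adjusted p = 0.11). Cort passed under 8 of the 18 alternative settings, with differences of 0.38 to 0.70, and did not pass under the rest. Those without background correction, with normexp and with the authors' values were nearly the same (0.384, 0.388 and 0.385). Without male replicate 1 (0.60, limma adjusted p = 0.012) or female replicate 2 (0.57, adjusted p = 0.043) Cort passed too. In the 2 arrays per sex of label batch a it was 0.13, and in label batch b 0.70 (adjusted p = 0.0087).

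Tac1 and Penk ran the other way in frontal cortex, at -0.67 ± 0.28 (adjusted p = 0.42) and -0.38 ± 0.17 (adjusted p = 0.46), and Cck was 0.21 ± 0.09 (adjusted p = 0.46), all by limma. The male Tac1 signal was 1510 or more on the 4 arrays of label batch b, above every female array. In the test of whether the sex difference itself differed between tissues, 0 of 8 passed, against 0.0787% of all genes at the adjusted threshold. At an unadjusted p under 0.05 there were 2, again without a share of all genes. The largest such terms were 0.84 ± 0.39 for Tac1 (adjusted p = 0.68) and -0.50 ± 0.17 for Cort (adjusted p = 0.52).

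Within frontal cortex Tac1 had the widest spread of the 8 genes, with an SD of 0.79 log2 units in females and 0.55 in males, and it varied with markers of striatal neurons. Of the 12 genes in the list of such markers 10 were on the array and all were kept, and 7 to 10 were detected on the female cortex arrays and 9 or 10 on the male ones. The mean log2 intensity of the list ran from 5.98 to 7.64 in females and from 7.21 to 8.46 in males. In cerebellum it ran from 5.49 to 5.74. Female replicate 1 was lowest in the list (5.98) and had the lowest Tac1 (347) and Penk (78.0) of the 12 cortex arrays and the lowest female Pdyn (755), and the next female array in the list was at 7.22.

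Tac1 followed the striatal mean closely over the 12 arrays, on deviations from the sex mean. Pearson's r was 0.97 (adjusted p = 0.00072) and Spearman's rho 0.97 (adjusted p = 0.00064), by permutation within sex, adjusted over the 8 members. Without the 2 arrays farthest from the median, female replicate 1 and male replicate 1, r was 0.93, and in label batch b (n = 8) it was 0.71 (exact permutation p = 0.036). Of all 11438 other genes, Rgs9, a signalling regulator enriched in striatum and itself on the marker list, had the pattern most like Tac1 (r = 0.99), before Clic6 and Insyn2b (both 0.97).

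Penk and Pdyn had a Pearson's r with the striatal mean of 0.87 (adjusted p = 0.018) and 0.80 (adjusted p = 0.04), but rho was 0.63 (adjusted p = 0.11) and 0.48 (adjusted p = 0.24). Without the same 2 arrays r was 0.47 and 0.36, and in label batch b (n = 8) 0.10 and -0.35 (exact permutation p = 0.84 and 0.4), so these relations rested on those arrays. Cck ran the other way, with r of -0.67 (adjusted p = 0.05) and rho of -0.69 (adjusted p = 0.088), -0.36 without the 2 arrays and 0.06 in label batch b. For Sst, Vip, Npy and Cort r lay between -0.32 and 0.01 over the 12 arrays, and none passed. In label batch b (n = 8), however, r was 0.84 for Cort (exact permutation p = 0.024), -0.81 for Vip (0.05), -0.66 for Sst (0.13) and -0.21 for Npy (0.61), so the relation there was not particular to Tac1. The label batch b p-values are not adjusted. How far the amount of striatum in the dissected tissue set these levels was not tested.

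**Figure D3:**
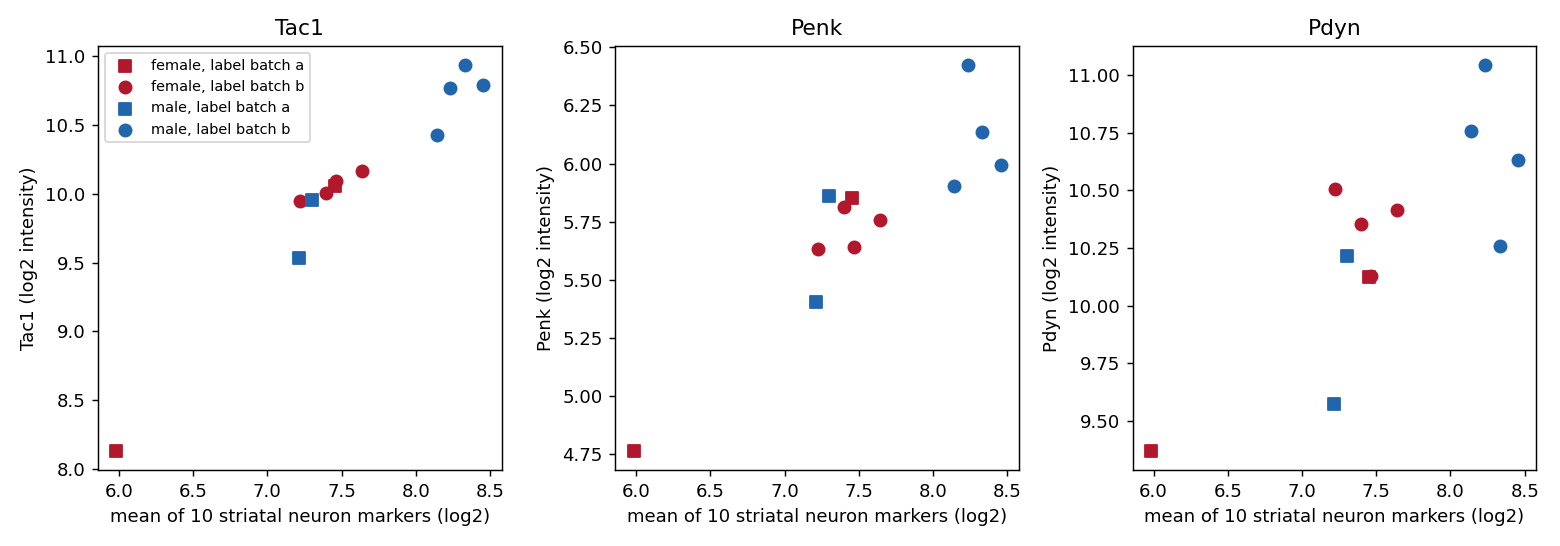
Log2 intensity of Tac1, Penk and Pdyn (vertical axes) against the mean log2 intensity of 10 striatal neuron markers (horizontal axis) on the 12 frontal cortex arrays, by sex (colour) and label batch (shape). Tac1 climbs with the marker mean over all arrays, while for Penk and Pdyn female replicate 1, at 5.98 on the horizontal axis, and male replicate 1, at 7.21, carry much of the slope.

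Between the label batches 0 of the 8 genes passed in frontal cortex (limma), against 0.717% of all genes at the adjusted threshold. At an unadjusted p under 0.05 there were 3, without a share of all genes. The difference, b minus a, was 0.97 ± 0.24 for Tac1 (limma adjusted p = 0.062), 0.69 for Pdyn (adjusted p = 0.21) and 0.44 for Penk (adjusted p = 0.25). Without female cerebellum replicate 4 Tac1 passed (0.97, adjusted p = 0.026), and so it did without female frontal cortex replicate 2 (1.46, adjusted p = 8.1e-05), while without female frontal cortex replicate 1 it was 0.49 (adjusted p = 0.37). The striatal mean of male cortex was 7.21 and 7.30 in label batch a and 8.14 to 8.46 in b, and that of female cortex was 5.98 and 7.45 in a and 7.22 to 7.64 in b, so 1 of the 2 female arrays of a lay inside the range of b. In cerebellum 0 of 8 passed, against 0.358% of all genes at the adjusted threshold. At an unadjusted p under 0.05 there were 4, without a share of all genes. By limma, b minus a, Cck was at 0.31 (adjusted p = 0.098), Npy at 0.28 (adjusted p = 0.21) and Sst at 0.98 (adjusted p = 0.25).

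Sst and Vip varied together in frontal cortex, and both differed between runs of neighbouring columns in the scanner table. The deposited table lists the 24 arrays in an order that can be read as 4 runs of 6 neighbouring columns; the files do not say what a run is. All 4 cortex arrays of run 4, 2 of each sex and from both label batches, had Sst signals of 3761 to 5393, and the other 8 had 2457 to 3242. For Vip run 4 had 435.7 to 790.2 and run 2 had 388 to 486, while runs 1 and 3 had 307 to 413. Fitted over the cortex arrays with sex, the run passed for Sst (limma adjusted p = 0.018) and Vip (0.028) and for none of the other 6, against 5.55% of all genes. Over all 24 arrays it passed for the same 2 genes (0.031 and 0.023), against 28.6% of all genes, so a call by run over all arrays was no rarer among other genes. Without female cerebellum replicate 4 and male cerebellum replicate 3, both in run 2, Sst did not pass (0.19) and Vip did (0.034), against 24.2%. This comparison was added after the values were seen, and what the run stands for was not tested.

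Among the 28 pairs of the 8 genes over the 12 cortex arrays, Sst and Vip had r of 0.86 (adjusted p = 0.021) and rho of 0.85 (adjusted p = 0.031, permutation within sex), 0.87 without the 2 farthest arrays and 0.90 in label batch b, and 0.52 once the run was removed. Cck and Penk had r of -0.83 (adjusted p = 0.021) and rho of -0.82 (adjusted p = 0.031), -0.71 without the 2 farthest arrays, -0.85 in label batch b and -0.80 with the run removed. Penk and Tac1 had r of 0.93 (adjusted p = 0.021) but rho of 0.70 (adjusted p = 0.17), and r of 0.61 without the 2 farthest arrays and 0.45 in label batch b. Another 3 pairs passed for r alone, Pdyn with Penk (0.85), with Tac1 (0.80) and with Cck (-0.77), and r was 0.42, 0.25 and -0.50 without the 2 farthest arrays and 0.38, -0.46 and -0.74 in label batch b.

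The genes with patterns most like Sst over the 12 arrays were Sdhd, Cox20 and Uqcc2, with r of 0.97, 0.97 and 0.96, and those most like Vip were F8a, Rgp1 and Pex19 (0.96 each). Npy was most like Sipa1 (0.92), Hbb-bt and Hbb-bs (both 0.91), Cck like Tnc (0.93), Mrm1 and Pcdhga12 (both 0.92), Pdyn like Uqcc1 (0.94), Frmd7 and Pigh (both 0.93), Penk like Chn2 (0.95), Pus3 and Strip2 (both 0.93), and Cort like Atp7a, Tmem160 and Cthrc1 (0.90 each). These are the highest of 11438 values over arrays that share runs and label batches, and they are given as a description.

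**Figure D4:**
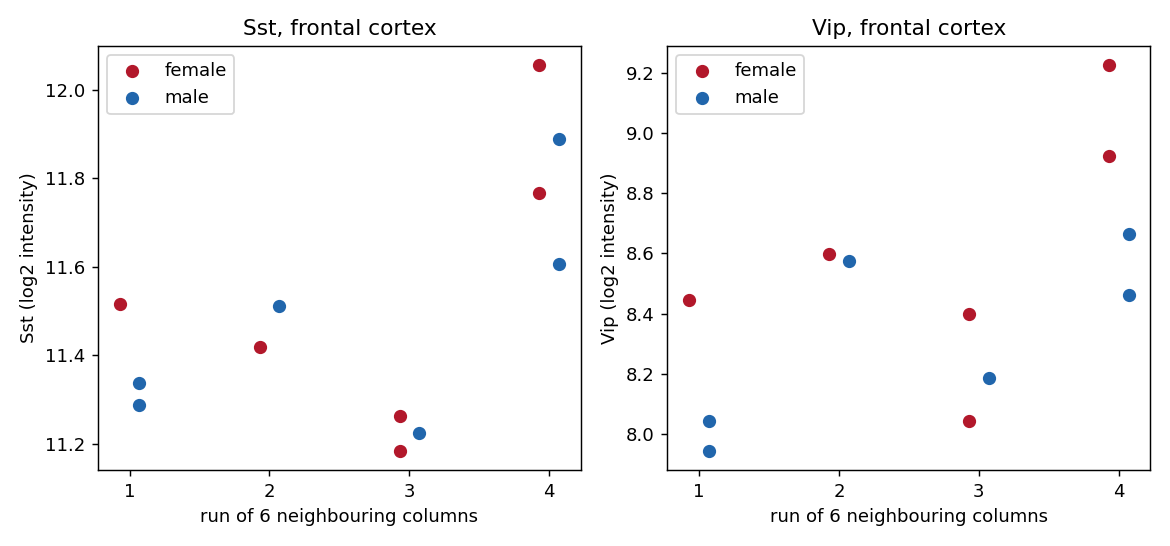
Log2 intensity of Sst and Vip (vertical axes) on the 12 frontal cortex arrays by run of 6 neighbouring columns of the scanner table (horizontal axis), coloured by sex. The 4 arrays of run 4 are the highest for Sst, from 11.61 to 12.06, and for Vip they run from 8.46 to 9.23, with 1 of them below both arrays of run 2.

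A pair of cerebellum arrays had higher levels of some forebrain transcripts than the others of their group. On female cerebellum replicate 4, 7 of the 8 neuropeptides were above the other 5 female arrays: Sst at 277 against 90.8 to 111, Vip at 78.2 against 56.6 to 63.2, Tac1 at 93.6 against 65.2 to 68.2 and Npy at 755 against 475 to 676. On male cerebellum replicate 3, 5 of the 8 were above the other 5 male arrays, with Sst at 182.5 against 87.3 to 123, Vip at 82.3 against 60.0 to 64.6 and Pdyn at 93.1 against 62.9 to 75.5. These counts are on normalised log2 intensity, where 0 or 1 of the 8 stood highest on each of the other 10 arrays. They are also by the brightest kept probe of each gene. The dimmer Cort probe was the lowest of its group on female replicate 4, at 4.434 against 4.494 to 4.768 on the log2 scale. The dimmer Pdyn probe was highest on male replicate 1, at 4.98 against 4.441 to 4.946 on the others, replicate 3 among them. The other Vip probe, which was not kept, was lowest on male replicate 3, at 4.37 against 4.481 to 4.61. Among females it was highest on replicate 3, at 4.826 against 4.271 to 4.603, and not on replicate 4. On the scanner signal 7 stood highest on the female array and 3 (Sst, Vip and Pdyn) on the male one, since the Npy and Cck signals of 463 and 776 there lay inside the range of the other male arrays, and the other 10 arrays had 0 to 2. By its brightest probe, Vip was detected on female replicate 4 and male replicate 3 and on no other cerebellum array. The other Vip probe was detected on 1 female cerebellum array and on 0 male ones.

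Some transcripts of other forebrain neurons were high on the same arrays: of the 8 kept from that list, 5 were above the other 5 arrays on female replicate 4 and 4 on male replicate 3, on log2 intensity. The 3 named next were chosen after their values were seen. Lamp5 had a signal of 258 and 277 on the 2 arrays against 80.7 to 146 on the rest, Nrgn, a postsynaptic protein of forebrain pyramidal cells, 214 and 190 against 72.4 to 108.1, and Tbr1, a transcription factor of deep cortical layers, 89.2 and 91.0 against 63.0 to 76.1. Emx1, a transcription factor of the developing cortex, was the lowest of its group on male replicate 3, at 4.197 against 4.252 to 4.344 on the log2 scale. The 8 kept forebrain transcripts had a mean log2 intensity of 5.70 and 5.73 on these arrays and 4.72 to 5.14 on the rest. Female replicate 5 (5.14) and male replicate 4 (5.13) were the next highest. Of 290 genes at least 2 log2 units lower in cerebellum in both sexes, 62.4% and 57.9% were higher on these arrays than on the other 5 of their group, against 4.14% to 13.1% on the other 10. Over all genes those shares were 16.1% and 12.2%. Of the 10 striatal neuron markers, 3 were above the other 5 arrays on female replicate 4 and 1 on male replicate 3. On the remaining cerebellum arrays that count was 0 to 4, so this list did not set the pair apart.

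The rise in scanner signal over the median of the other 5 arrays, as a share of the gap between that median and the frontal cortex median of the sex, was positive for all 8 members on the female array. It was 5.78% for Sst, 5.68% for Npy, 4.44% for Cck, 4.32% for Vip, 3.37% for Cort, 2.34% for Tac1 and 2.12% for Pdyn, and 16.1% for Penk, whose tissues differ little, beside 2.71% for Tbr1, 2.29% for Nrgn and 2.15% for Lamp5. On the male array the members were uneven, at 6.91% for Vip, 3.21% for Sst and 1.89% for Pdyn but 0.244% for Cck, 0.0654% for Tac1 and 0.019% for Npy, and below 0 for Cort (-6.71%) and Penk (-6.33%), while Tbr1, Lamp5 and Nrgn were at 3.41%, 2.65% and 2.26%. The remaining cerebellum arrays reached at most 1.03% for Sst, 1.04% for Vip, 1.37% for Pdyn and 0.258% for Tac1. For Cck, Npy, Cort and Penk they reached 3.02%, 3.47%, 7.83% and 51.3%, so the shares of Cort and Penk were not particular to the female array. Whether forebrain tissue or RNA reached female replicate 4 and male replicate 3 was not tested.

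**Figure D5:**
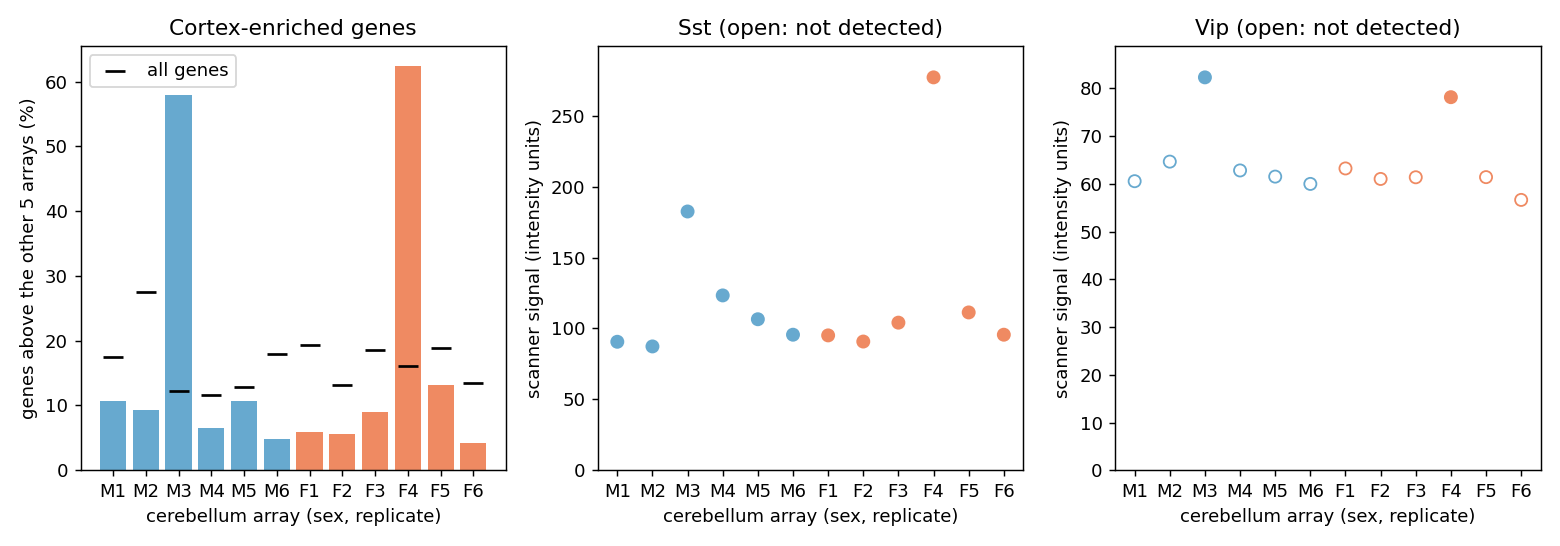
The left panel gives, per cerebellum array (M or F with its replicate number), the percentage of 290 cortex-enriched genes whose log2 intensity was above the other 5 arrays of the group (bars) and the same over all genes (dashes). The middle and right panels give the Sst and Vip scanner signals, with open points not detected, and arrays M3 and F4 stand above the rest in all 3 panels.

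Leaving out both arrays kept every tissue call of the 8 genes and moved the Sst difference to -5.86 in females and -5.82 in males. Without female cerebellum replicate 4 alone, the small Sst sex difference in cerebellum turned from 0.13 to -0.25. Both arrays were of label batch b and of run 2, and without them the label batch difference of Sst in cerebellum was 0.55 (limma adjusted p = 0.29).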

How the data were processed

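The authors deposited, per the file headers, scanner output that gives for every probe the intensity averaged over its beads (linear, not normalized), its standard error as a further signal column, the count of beads and the detection p-value. They also deposited further values of intensity whose columns have nearly the same sorted values, as after quantile normalization, and whose ranks within an array equal those of the scanner intensity. The program Partek is named in the submitters' processing notes, with no role or version. The platform annotation gave 1 symbol to 34885 probes, and 34807 were matched to current symbols by Entrez identifier.

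From the deposited intensity, log2 values were computed with neqc (offset 16) in limma 3.58.1 under R 4.3.3, with data.table (version 1.17.8) and statmod 1.5.0. Of 45281 probes 21113 were kept, with 11439 named genes. The 4 group means were fitted together and moderated with eBayes, with intervals at 95% and a threshold of 0.05. Named were all members by their brightest kept probe, up to 4 genes per list, the 3 genes most alike by r, and forebrain transcripts on single arrays. The genes of a list were chosen by size of difference, except Crhr1 and Sct, named because they were higher in cerebellum. Members and lists were chosen with earlier results of these data known. The fit was tested on simulated data. Permutations numbered 100000.

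The label of the animal pairs the tissues. The deviations of an animal's arrays correlated at -0.285 to 0.271, above 0.1 in 5 of 12 animals, with a consensus of -0.016. The fit held no animal term. Alternatives were other corrections, scalings, filters, batches, blocks and samples. Promoters are from RefSeq tables; Penk, Crh and Pnoc were not matched.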

Additional observations from a re-analysis of the deposited data

Results flagged for a closer look

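A value was marked where 1 array of a group of 6 stood apart by Dixon's gap ratio. Of 80 such groups examined 12 were marked, 8 of them among the 40 of the neuropeptides. Chance marks about 1 in 20 of independent groups with a normal spread. The groups here share arrays and genes, so the count cannot be judged by that rate.

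On female cerebellum replicate 4, Sst was at 7.96 on the log2 scale (others 5.35 to 6.11), Vip at 4.91 (others 4.22 to 4.30), Tac1 at 5.55 (others 4.34 to 4.49) and Tbr1 at 5.40 (others 4.31 to 4.69). On male cerebellum replicate 3, Vip was at 5.15 (others 4.26 to 4.36) and Tbr1 at 5.50 (others 4.34 to 4.70).

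On female frontal cortex replicate 1, Tac1 was at 8.13 (others 9.95 to 10.17), Pdyn at 9.37 (others 10.12 to 10.51), Penk at 4.76 (others 5.63 to 5.85) and the mean of the striatal neuron markers at 5.98 (others 7.22 to 7.64).

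Penk was low on male cerebellum replicate 2, at 4.82 (others 5.27 to 5.52), and Lhx2, a forebrain transcription factor, was high on female cerebellum replicate 3, at 4.43 (others 4.26 to 4.32).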

How the results depend on the processing

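Under the alternatives other than leaving out 1 array, the tissue counts stayed at 7 in females and 8 in males except within a single label batch. Penk passed in females in label batch b alone and did not pass in males in label batch a alone. Leaving out 1 array at a time gave 7 to 8 and 8 to 8. The interaction count was 0 in all of those fits. With the animal as the replicate block, no call by tissue or for the interaction changed. That fit cannot test sex, which does not vary within an animal. With the replicate number as the block, which joins different animals and is no true pairing, the 0 calls by sex remained 0. The sex count in frontal cortex went from 0 to 1 (Cort) without background correction, with normexp by maximum likelihood, under median scaling, with the authors' values, with array weights, in label batch b alone, with the runs of columns as a block and with the mean of a gene's probes, and was 0 to 1 on leaving out arrays. The sex count in cerebellum went to 1 (Npy) in label batch b alone. The label batch count in frontal cortex went to 2 (Tac1, Pdyn) and in cerebellum to 1 (Cck) without background correction, with normexp and with the authors' values, and was 0 to 2 in frontal cortex on leaving out arrays. The cause was not tested. Signs turned for Npy in label batch a alone (sex in cerebellum -0.018, interaction -0.223), for Vip by label batch in cerebellum without both arrays with forebrain transcripts (-0.018), for Cort by label batch in frontal cortex without male frontal cortex replicate 2 (-0.104, and -0.104 to 0.179 on leaving out each array) and for Sst by sex in cerebellum without female cerebellum replicate 4 (-0.248, and -0.248 to 0.402). The relations with the striatal mean that passed by r were 4 in place of 3, with Cck added, and the members that stood apart in a cerebellum group were 4 in place of 5, without background correction and with the authors' values. At a detection p under 0.01 the number of genes detected on every frontal cortex array was 7 in place of 8. Low signal limits the folds of Vip, Tac1 and Pdyn in both sexes and of Cort in males to bounds, and Crh and Pnoc give no comparison.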
